A study of Mus musculus with 12 samples.

Results

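Krt4, Krt13, Krt5, Krt15, Sprr3, Krtdap, Serpinb3a, Serpinb12, Defb4 and Crct1 are 10 genes of stratified squamous epithelium, out of 19938 genes measured by name in mouse lung. They were chosen by the spread of their log2 levels between replicates of the same group, by which 8 of them stood among the first 11 of all clusters, so this spread is given here as a description, with no test. Each of the 10 genes was represented by 1 transcript cluster, that is, 1 set of probes along the gene whose signals are combined into 1 value. The lungs came from wild-type C57BL/6J mice, 8 to 10 weeks old. There were 4 groups: females in room air, males in room air, and females and males kept for 48 h in hyperoxia (over 95% oxygen). Each group had 3 Affymetrix Mouse Gene 1.0 ST arrays, 12 in all, and each array carried lung RNA pooled from 4 mice. The spread between replicates is therefore a spread between pools, and it cannot be said which of the mice in a pool carried a transcript. The values are log2 expression levels as deposited, made by Robust Multichip Average (RMA). Each array was a sample of whole lung RNA, so more cells of a type and more RNA per cell cannot be told apart.

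Stratified squamous epithelium lines the mouth, oesophagus and skin in layers. Cells divide in the basal layer, where they make Krt5, Krt14 and Krt15, and move outwards as they differentiate. Above the basal layer of the mouth and oesophagus they switch to Krt4 and Krt13, a pair of keratins that assemble with each other, and then make proteins such as Sprr3 and loricrin (Lor) that are cross-linked into a tough envelope beneath the plasma membrane. The airways of the lung are lined by ciliated, secretory and basal cells, and the alveoli by type 1 and type 2 cells. Krt5 and Krt14 are made by basal cells of the trachea and main bronchi, while Sprr3 and Lor are best known from squamous linings.

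The genes lie in several gene clusters of the mouse genome. In RefSeq (GRCm38.p6), Krt4 and Krt5 are on chromosome 15, Krt13 and Krt15 are neighbours on chromosome 11, Sprr3 and Crct1 are on chromosome 3, Krtdap is on chromosome 7, Serpinb3a and Serpinb12 are on chromosome 1 and Defb4 is on chromosome 8. The 250 bases before the annotated start were read for 6 of the 10 genes, and no promoter entry was at hand for Krt4, Krt15, Defb4 and Crct1. The windows of 4 genes from 4 chromosomes are printed. Serpinb3a and Serpinb12 were also read and also rose and fell with the other genes across the pools, but their windows are not printed. Each is given 5′ to 3′ on the strand of the gene. The capitals mark 3 motifs: ATAAA with its first base 20 to 40 bases before the start, on the strand of the gene; TGANTCA, read on both strands; and CACCC, read on both strands and so also written GGGTG.
Krt5, basal layer, chr15:101712906-101713155, minus strand: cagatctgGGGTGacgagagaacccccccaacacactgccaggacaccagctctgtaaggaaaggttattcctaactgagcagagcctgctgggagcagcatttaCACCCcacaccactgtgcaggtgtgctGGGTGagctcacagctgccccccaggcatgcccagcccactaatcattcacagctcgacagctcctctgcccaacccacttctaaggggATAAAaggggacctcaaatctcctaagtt
Krt13, layers above, chr11:100121567-100121816, minus strand: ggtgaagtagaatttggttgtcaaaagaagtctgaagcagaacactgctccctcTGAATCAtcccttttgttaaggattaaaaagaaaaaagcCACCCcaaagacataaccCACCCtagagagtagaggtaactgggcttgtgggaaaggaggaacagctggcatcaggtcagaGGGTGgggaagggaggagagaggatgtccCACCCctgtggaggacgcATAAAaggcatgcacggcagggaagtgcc
Sprr3, envelope, chr3:92458721-92458970, minus strand: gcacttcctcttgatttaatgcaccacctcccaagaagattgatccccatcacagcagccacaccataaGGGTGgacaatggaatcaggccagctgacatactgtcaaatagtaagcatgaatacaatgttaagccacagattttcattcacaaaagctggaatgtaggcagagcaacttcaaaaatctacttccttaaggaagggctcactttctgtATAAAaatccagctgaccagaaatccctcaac
Krtdap, differentiation, chr7:30787655-30787904, plus strand: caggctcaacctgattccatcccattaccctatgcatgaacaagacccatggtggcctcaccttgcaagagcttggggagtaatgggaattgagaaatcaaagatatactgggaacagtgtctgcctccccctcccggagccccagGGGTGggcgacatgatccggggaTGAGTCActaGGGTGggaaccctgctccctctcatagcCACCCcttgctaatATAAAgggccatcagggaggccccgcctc
ATAAA stood in its window in 4 of the 6 promoters read, those printed above, against 4.25% of 32817 mouse promoters of the same length. TGANTCA stood in 3 of the 6 (Krt13, Krtdap and Serpinb12), against 6.75% of all promoters, and CACCC in 4 of the 6, against 52.0%. The windows of Serpinb3a and Serpinb12, not printed, held neither ATAAA at that place nor CACCC, and whether any motif goes with the pool pattern was not tested. These are matches of letters, with no measure of binding.

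Basal layer keratins differed between pools by less than the others, but more than most genes on the array. Krt5, the keratin of dividing basal cells, had log2 levels of 10.27, 7.69 and 9.50 in replicates 1, 2 and 3 of female room air, 10.75, 8.00 and 7.75 in female hyperoxia, 8.45, 8.61 and 7.63 in male room air, and 7.47, 8.58 and 8.06 in male hyperoxia. Krt15, a keratin of quiet basal cells and of stem cells in hair follicle and oesophagus, had 9.93, 8.01 and 9.08 in female room air, 10.00, 8.21 and 8.07 in female hyperoxia, 8.69, 8.45 and 7.98 in male room air, and 7.97, 8.64 and 8.26 in male hyperoxia. For both genes the same 3 female pools stood above all others: replicates 1 and 3 of room air and replicate 1 of hyperoxia. From the lowest to the highest of the 12 pools, Krt5 covered 9.76-fold and Krt15 4.07-fold. The SD around the group means (the residual SD, in log2 units over 8 degrees of freedom) was 1.13 for Krt5 and 0.76 for Krt15. The median over all 35556 transcript clusters was 0.14 and the 99th percentile 0.77.

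Suprabasal keratins differed far more. Krt4, a keratin of the layers above the basal one, had log2 levels of 12.82, 8.24 and 12.36 in female room air, 13.04, 10.84 and 10.06 in female hyperoxia, 11.28, 11.52 and 7.08 in male room air, and 6.87, 11.48 and 9.75 in male hyperoxia. Its partner Krt13 had 12.77, 8.50 and 12.09 in female room air, 12.89, 10.73 and 10.03 in female hyperoxia, 11.08, 11.44 and 7.70 in male room air, and 7.73, 11.39 and 9.74 in male hyperoxia. All groups overlapped, and in both room air groups 2 pools were high and 1 was low. Krt4 covered 71.9-fold over the 12 pools and up to 24.5-fold within a group, and Krt13 covered 36.5-fold and 19.4-fold. The keratin partners moved as one: the SD of the difference between Krt4 and Krt13 was 0.37 log2 units, against 2.26 and 1.94 for the genes themselves. Likewise Krt5 and Krt15 had an SD of 0.40 in their difference. Across the layers the SD was 1.13 for the difference between Krt5 and Krt13 and 1.48 for that between Krt5 and Krt4. Such an SD also grows where 2 genes differ in spread, as these do. Correlations of the deviations from the group means were 0.86 and 0.82 for these pairs. They were 1.00 for Krt4 with Krt13 and 0.99 for Krt5 with Krt15.

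**Figure D1:**
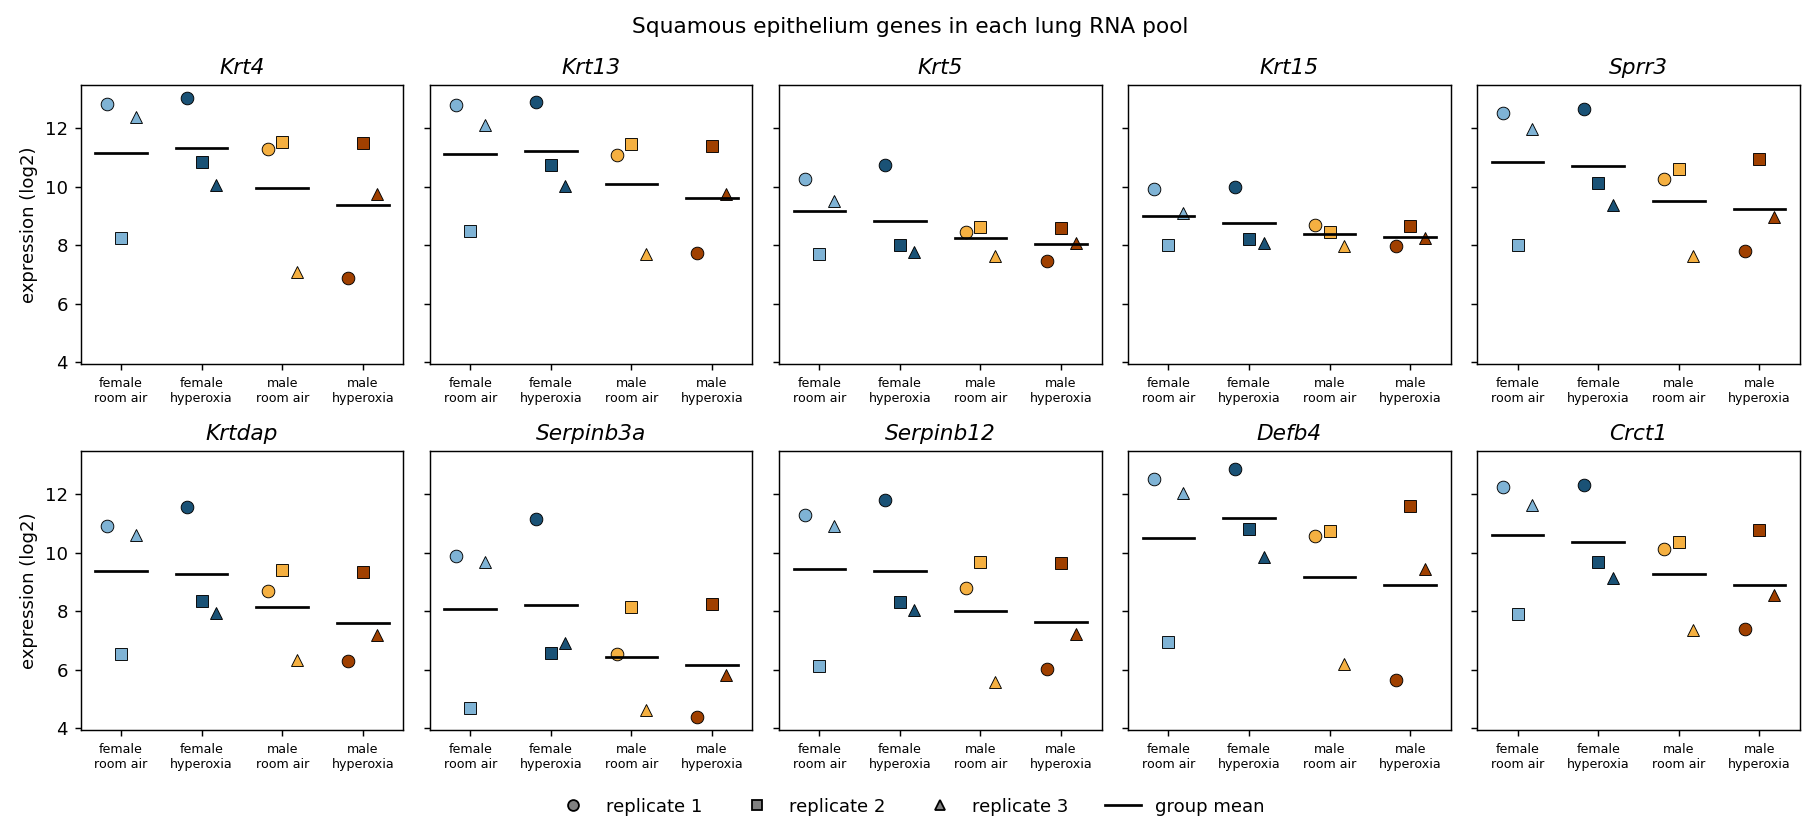
Log2 expression (vertical axis) of the 10 squamous epithelium genes in each of the 12 lung RNA pools, by group (horizontal axis). Circles, squares and triangles are replicates 1, 2 and 3, and bars are group means of 3 pools. In every panel female room air replicates 1 and 3 and female hyperoxia replicate 1 are the highest pools, and the 4 groups overlap.

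Genes of the cornified envelope followed the suprabasal keratins. Sprr3, a small proline-rich envelope protein abundant in oesophagus, had log2 levels of 12.51, 8.02 and 11.98 in female room air, 12.65, 10.13 and 9.38 in female hyperoxia, 10.25, 10.61 and 7.63 in male room air, and 7.81, 10.94 and 8.95 in male hyperoxia. Crct1, a cysteine-rich protein encoded in the same epidermal differentiation complex, had 12.25, 7.91 and 11.62 in female room air, 12.29, 9.68 and 9.13 in female hyperoxia, 10.13, 10.36 and 7.36 in male room air, and 7.39, 10.76 and 8.54 in male hyperoxia. The order of the pools was nearly that of Krt4, with male hyperoxia replicate 2 and male room air replicate 2 as the highest male pools. Sprr3 covered 32.4-fold and Crct1 30.6-fold, and the SD of their difference was 0.11 log2 units, the smallest of the 6 pairs of genes compared in this way. Krtdap, a secreted protein of differentiating keratinocytes, had 10.92, 6.54 and 10.60 in female room air, 11.55, 8.33 and 7.92 in female hyperoxia, 8.68, 9.41 and 6.33 in male room air, and 6.28, 9.33 and 7.19 in male hyperoxia, a range of 38.5-fold.

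Both serpins had larger ranges. Serpinb12, an intracellular inhibitor of trypsin-like proteases, had log2 levels of 11.27, 6.13 and 10.90 in female room air, 11.79, 8.31 and 8.05 in female hyperoxia, 8.78, 9.69 and 5.58 in male room air, and 6.03, 9.64 and 7.20 in male hyperoxia. Serpinb3a, of the squamous cell carcinoma antigen group, had 9.87, 4.68 and 9.67 in female room air, 11.13, 6.56 and 6.92 in female hyperoxia, 6.54, 8.14 and 4.61 in male room air, and 4.37, 8.25 and 5.82 in male hyperoxia. Its lowest pools were among the lowest values on the array, where probes are near background, so its 109-fold range depends on how background was removed. Serpinb12 was also low in male room air replicate 3 (5.58), so its range may depend on this too. Serpinb3a also has close copies in the same gene cluster, and signal from them cannot be separated from its own with these values.

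Defb4, a beta-defensin that kills bacteria at epithelial surfaces, had the largest spread within groups of all 35556 clusters. Its log2 level was 12.52, 6.95 and 12.05 in female room air, 12.86, 10.81 and 9.85 in female hyperoxia, 10.55, 10.73 and 6.19 in male room air, and 5.64, 11.57 and 9.42 in male hyperoxia. That is a range of 149-fold over the 12 pools and of 61.1-fold between male hyperoxia replicates 1 and 2. Both folds start from the lowest value, 5.64, which is close to the 5.30 to 5.55 of Serpinb13, a gene near background. They may thus depend on how background was removed. By residual SD, Defb4 (2.62) ranked 1st, Serpinb3a 2nd, Serpinb12 3rd, Krt4 4th, Krt13 7th, Krtdap 8th, Sprr3 9th, Crct1 11th, Krt5 79th and Krt15 369th. The other clusters among the first 11 were Lce3e and Lor, both of the cornified envelope, and Trdn, the triadin of striated muscle.

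The same pools were high and low for every one of the 10 genes. Female hyperoxia replicate 1 was the highest, female room air replicate 1 the second and replicate 3 the third, for all 10. Male room air replicate 3, male hyperoxia replicate 1 and female room air replicate 2 were the lowest 3 for all 10. The mean over the 10 genes was 11.51, 7.27 and 10.99 in female room air, 11.89, 9.16 and 8.72 in female hyperoxia, 9.44, 9.90 and 6.81 in male room air, and 6.76, 10.06 and 8.29 in male hyperoxia. As a group females had 9.92 ± 2.31 (SD, n = 3) in room air and 9.92 ± 1.72 in hyperoxia, and males had 8.72 ± 1.67 in room air and 8.37 ± 1.65 in hyperoxia, so that neighbouring groups differed by less than 1 SD. Correlations of the deviations from the group means over the 12 arrays, given as a description, were 0.91 to 1.00 for the 28 pairs without a basal keratin and 0.77 to 0.93 for the 16 pairs with 1 basal keratin.

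Hyperoxia did not give a called change of any of the 10 genes. They were chosen by their spread between pools of a group, which is the error that the test uses and which makes groups overlap, so the choice itself largely fixes a lack of calls, and the shares of all clusters printed beside the counts are given for scale only. A call needed a fold change of at least 1.4 and an adjusted p (Benjamini-Hochberg, limma) under 0.05. It was given to 0 of the 10 genes in females, where 6.52% of all clusters were called, 0 in males, where 7.34% were called, and 0 over both sexes, where 7.12% were called. At an unadjusted p under 0.05 from limma the counts of the 10 genes were also 0, beside 27.0% of all clusters in females, 28.0% in males and 35.2% over both sexes. Over both sexes the log2 fold change between hyperoxia and room air (positive where hyperoxia was higher) ran from -0.31 to 0.20 with 9 of 10 below 0, and the adjusted p from 0.863 to 0.984 (limma). The groups overlapped for each gene in each comparison. Over all clusters 30.4% did not overlap between hyperoxia and room air in females and 32.9% in males. For each of the 10 genes the sign over both sexes turned when 1 pool or another was left out: Krt4 moved from -0.21 to 0.41 without male hyperoxia replicate 1, and Krt5 from -0.26 to 0.024 without female room air replicate 1. Defb4 moved from 0.20 to -0.69 without female room air replicate 2.

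The intervals were wide. The 95% confidence interval of Krt4 over both sexes was -2.78 to 2.36 on the log2 scale (log2 fold change -0.21, SE 1.16), that of Defb4 -2.79 to 3.18 (0.20, SE 1.34) and that of Sprr3 -2.33 to 1.95 (-0.19, SE 0.96). Krt15 had the narrowest, -1.03 to 0.70 (-0.16, SE 0.39), and Krt5 had -1.55 to 1.03 (-0.26, SE 0.58). None of the 10 intervals lay within a 1.4-fold change in either direction. A 1.4-fold rise and a 1.4-fold fall thus both lay inside each interval, and changes of that size were not detectable in these 10 genes with 3 pools a group. Estimates in the sexes taken alone ran from -0.32 to 0.67 in females and from -0.60 to -0.08 in males.

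**Figure D2:**
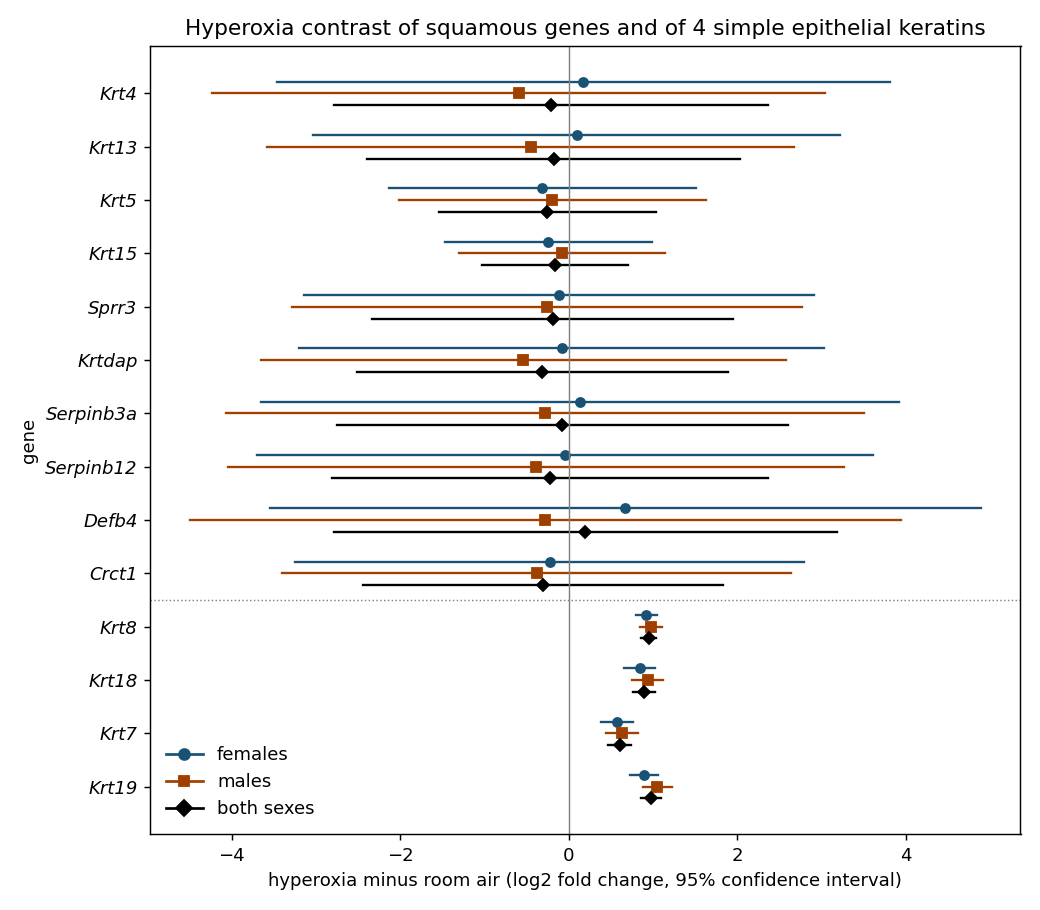
Difference between hyperoxia and room air as a log2 fold change (horizontal axis), with its 95% confidence interval from limma for the 10 squamous genes and for 4 of the called keratins of simple epithelium below the dotted line, in females, in males and over both sexes. The intervals of the squamous genes span 0 and those of the simple keratins lie above it.

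For sex the same holds, since the choice by spread bears on this test too. Males were lower than females in the group means of all 10, by log2 differences of -1.64 to -0.63 in room air and -2.30 to -0.47 in hyperoxia, but 0 of 10 were called (0.0141% and 0.0169% of all clusters; limma, adjusted p = 1.00 and 0.945 for all 10), and 0 reached an unadjusted p under 0.05 (2.44% and 3.26% of all clusters). Groups of both sexes overlapped for all 10. Over all clusters 5.63% did not overlap in room air and 8.44% in hyperoxia. The difference of the sexes in their response (the interaction, male minus female) ran from -0.95 to 0.16 log2 units, with 0 of 10 genes called by limma (0.0% of all clusters) and 0 at an unadjusted p under 0.05 (1.45%).

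A few other keratins were called higher in hyperoxia, among them 4 with little spread between pools. The 4 given here were picked from those called and are known from simple epithelium, the type in alveoli and airways, while Krt20, also of simple epithelium, was not called (log2 fold change 0.10 over both sexes, limma adjusted p = 0.219; log2 levels 5.85 to 6.30). Krt8, which lies 3 genes from Krt4 on chromosome 15, was 11.82, 11.83 and 11.79 in female room air, 12.65, 12.82 and 12.73 in female hyperoxia, 11.75, 11.85 and 11.86 in male room air, and 12.79, 12.79 and 12.81 in male hyperoxia. Hyperoxia and room air did not overlap in either sex. Krt8 rose by a log2 fold change of 0.95 over both sexes (SE 0.04, limma adjusted p = 1.28e-07), its partner Krt18 by 0.89 (SE 0.06, adjusted p = 1.55e-06), Krt19 by 0.97 (SE 0.05, adjusted p = 5.29e-07) and Krt7 by 0.60 (SE 0.06, adjusted p = 3.12e-05). Krt19, the neighbour of Krt15, had a residual SD of 0.09, against 0.76 for Krt15. Of the 48 other keratins measured, 6 were called higher in hyperoxia in females, in males and over both sexes (these 4, Krt23 and Krt80) and 0 lower, beside 3.59%, 3.94% and 3.86% of all clusters called higher. Counts of named genes, here and below, use 1 cluster per gene, while those shares include clusters with no symbol. In a fit of 1 cluster per gene, 961 of 19938 were called higher in females, 1069 in males and 1028 over both sexes. Krt23 had a residual SD of 0.21, and its deviations from the group means had a correlation of 0.91 with the mean deviation of the 10 squamous genes.

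The spread differed within the gene families, and a low SD at a low level, near background, says little. Among those 48 other keratins, 44 had a residual SD below 0.25 and 1 reached 0.5, Krt78, a keratin of the upper layers (0.53). Krt6a, next to Krt5 and known from wounded epidermis, had 0.18 at log2 levels of 6.70 to 7.24, and Krt76, a neighbour of Krt4 known from the palate, had 0.20 at 6.05 to 6.63. In the Serpinb family, 5 of 22 other genes reached 0.5, among them Serpinb5 (1.53) and Serpinb11 (1.22), whereas Serpinb13, which lies between Serpinb12 and Serpinb3a, had 0.09 with all values from 5.30 to 5.55. Of the copies of Serpinb3a, Serpinb3c had a log2 level of 8.82 in female hyperoxia replicate 1 and 5.28 to 6.35 in the other 11 pools. In the Lce family of late cornified envelope proteins 15 of 19 genes reached 0.5, in the Sprr family 2 of 12 others (Sprr1a and Sprr1b, both flanking Sprr3), and in the Defb family 1 of 39 others. Clusters with several symbols were not counted here. Among them, the cluster shared by Sprr2a1, Sprr2a2, Sprr2a3 and Sprr2b had a residual SD of 1.27. Those shared by Sprr2a1 and Sprr2a3 had 1.08. Hyperoxia gave a call for Serpinb9b in the Serpinb family and for 0 genes in the Lce, Sprr and Defb families (limma), beside the 6.52%, 7.34% and 7.12% of all clusters called in females, in males and over both sexes. A large spread between pools, as in most Lce genes, itself hinders a call.

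**Figure D3:**
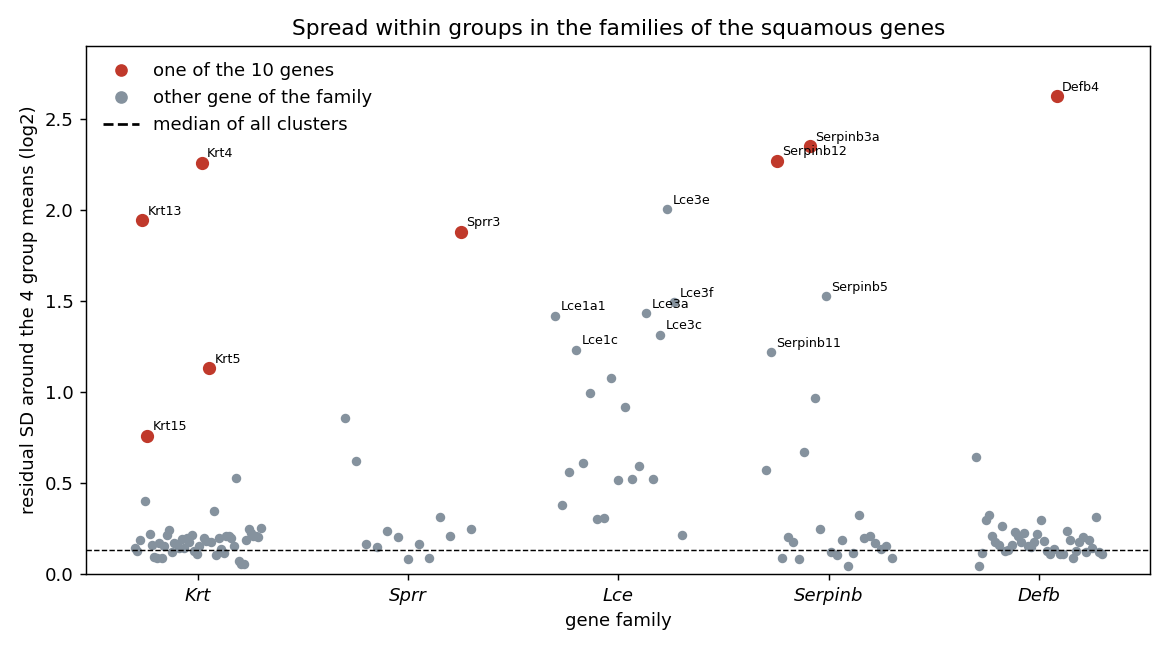
SD around the 4 group means in log2 units (vertical axis) of every measured gene of 5 families (horizontal axis). Red points are the chosen squamous genes, grey points the other genes of the family, and the dashed line is the median of all transcript clusters, 0.14. Most keratins and beta-defensins lie near the dashed line, while most Lce genes lie above it.

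Further genes of the squamous programme rose and fell with the 10. Likeness was measured as Pearson's r between a cluster's deviations from its group means and the mean deviation of the 10 genes, over the 12 arrays, for clusters with a residual SD of at least 0.5. The 10 genes most alike were Lor, the main envelope protein of skin (r = 1.00), Cnfn, another envelope protein (0.99), Asprv1, a skin protease (0.99), Rptn (0.99), Gm94 (0.98), Lce1c (0.98), Lce3e (0.98), Tgm3, a transglutaminase that cross-links the envelope (0.98), Kprp (0.97) and Them5 (0.96). Lor had log2 levels of 12.17, 7.61 and 11.56 in female room air, 12.58, 9.95 and 9.23 in female hyperoxia, 10.08, 10.54 and 7.16 in male room air, and 7.37, 10.78 and 8.86 in male hyperoxia. Its highest and lowest 3 pools were those of the 10 genes. In all 56 clusters had r of at least 0.9, 9 of them of the 10 genes themselves and 47 others. The 56 became 113 without male room air replicate 2 and 32 without female room air replicate 2. The lowest r among genes of that spread were those of Olfr767 (-0.49), Prp2 (-0.46), Cyp1a1 (-0.32), Bmp10 (0.09) and Kcnj3 (0.23).

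Other listed genes of stratified squamous epithelium were read for spread between pools and for calls. That spread is the error of the limma test, so a gene of large spread is hard to call and the counts cannot be compared. Of 39 measured, 21 had a residual SD of at least 0.5 and 10 of these had r of at least 0.9, among them Dsg3, a desmosomal cadherin of the lower layers (residual SD 1.25), and Serpinb5. Ivl, encoding involucrin, had a residual SD of 0.11 and log2 levels of 7.07 to 7.44. Hyperoxia gave 2 calls in females, 3 in males and 3 over both sexes, all higher. Of all clusters 3.59%, 3.94% and 3.86% were called higher, and 6.52%, 7.34% and 7.12% in either direction. Counts this small are given for scale and do not set the list apart from the array. The list median was -0.01 log2 units over both sexes beside -0.01 for all clusters. The called genes were Scel, encoding sciellin (log2 fold change 0.89 over both sexes, SE 0.08, limma adjusted p = 1.44e-05), Ppl, the plakin periplakin (0.69, SE 0.11, adjusted p = 0.000702) and Sfn, encoding 14-3-3 sigma, a regulator of the cell cycle (1.14, SE 0.22, adjusted p = 0.00262, not called in females). Sfn had 2 clusters with nearly the same mean (9.67 and 9.65), of which the one with the higher mean was used. The other is the cluster that the paper lists for Sfn, among genes changed in males only. It gave 0.88 over both sexes (limma adjusted p = 0.00349) and was likewise called in males and not in females. Estimates in females were above 0 too, 0.88 for the cluster used and 0.64 for the other. The interaction was called for neither (0.50 and 0.49, limma unadjusted p = 0.278 and 0.201), so a difference between the sexes was not shown. Without female room air replicate 1, Sfn was called in females as well (1.19, limma adjusted p = 0.0243). Scel, Ppl and Sfn are also known from epithelia other than squamous ones. Ppl and Sfn also rose and fell with the 10 genes (r = 0.88 each), and Ppl was not called in females without female room air replicate 2 (adjusted p = 0.0333, fold under 1.4) or without female hyperoxia replicate 1 (adjusted p = 0.0562).

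Basal cell genes showed a weaker form of the pool pattern, mainly in females. Of 13 measured, 2 had a residual SD of at least 0.5, Trim29 (0.63) and Perp (0.54). The mean of the 13 covered 1.58-fold in female room air, 1.67-fold in female hyperoxia, 1.16-fold in male room air and 1.11-fold in male hyperoxia. In the 2 male groups the mean of the 10 squamous genes covered 8.51-fold and 9.86-fold. Trp63, the transcription factor of basal cells, had log2 levels of 8.40, 7.76 and 8.04 in female room air, 8.35, 7.71 and 7.66 in female hyperoxia, 8.05, 7.80 and 7.81 in male room air, and 7.62, 7.89 and 7.77 in male hyperoxia. Replicates 1 of both female groups were its highest pools, as for Krt5. Hyperoxia called Gpx2, a glutathione peroxidase (1.59 over both sexes, SE 0.05, limma adjusted p = 2.02e-08), in both sexes, and Itgb4, an integrin of hemidesmosomes (0.58, SE 0.07, adjusted p = 6.88e-05), in males and over both sexes, with 0 lower. These are 1 of 13 in females and 2 of 13 in males and over both sexes. Beside them, 3.59%, 3.94% and 3.86% of all clusters were called higher, and 6.52%, 7.34% and 7.12% in either direction. In females the count of 1 became 2 without female room air replicate 1 or without female hyperoxia replicate 3, when Itgb4 was added.

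Skeletal muscle genes moved with the squamous genes in part. Of 18 measured, 17 had a residual SD of at least 0.5, with Myh1, the myosin of fast muscle, at 1.79, but 0 reached r of 0.9 with the 10 genes. Their mean was 10.55, 7.78 and 9.39 in female room air, 10.03, 8.44 and 9.28 in female hyperoxia, 9.44, 7.72 and 7.70 in male room air, and 7.64, 9.91 and 7.77 in male hyperoxia. Male room air replicate 2 was thus high in the squamous genes and among the low pools in muscle. The correlation of the list's mean deviation with that of the 10 genes was 0.79 for skeletal muscle, 0.51 for cardiac muscle, 0.82 for basal cells and 0.93 for the other squamous genes. With the mean of the skeletal muscle genes as a covariate 0 of the 10 squamous genes were called in females, in males or over both sexes (limma). The part of other tissue in the pools was not tested.

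**Figure D4:**
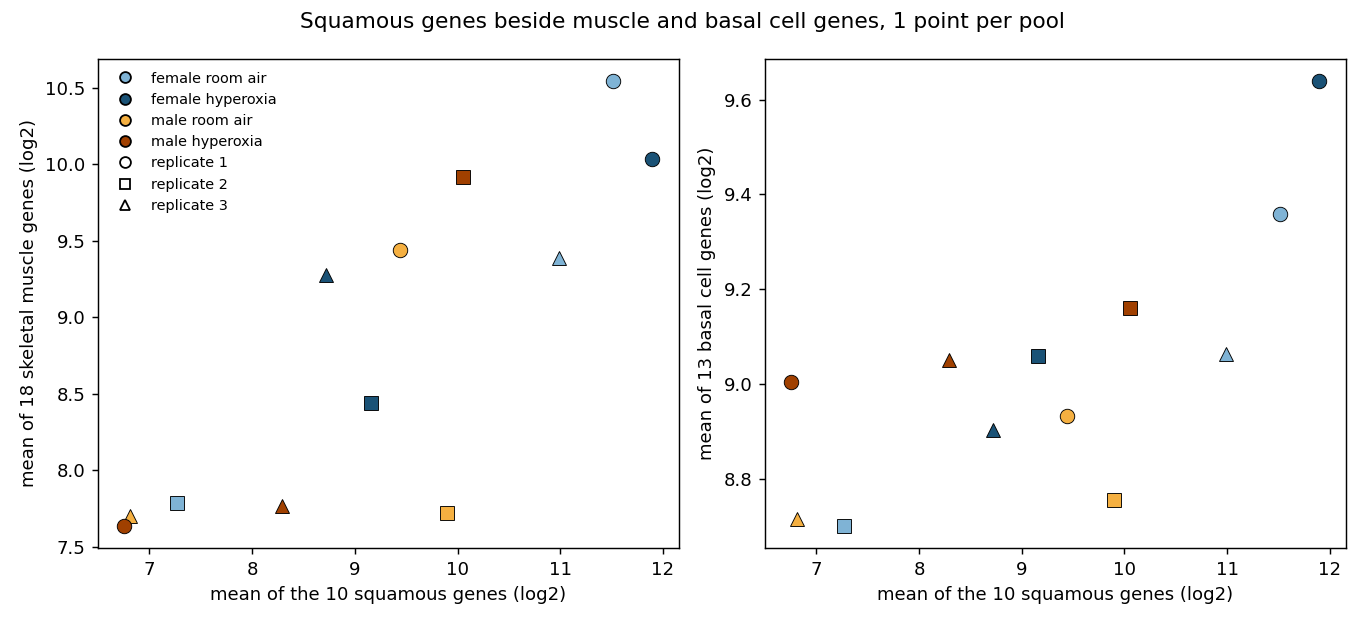
Mean log2 level of 18 skeletal muscle genes (left) and of 13 basal cell genes (right) against the mean of the 10 squamous genes, with 1 point per pool, colours for the 4 groups and shapes for replicates 1 to 3. Male room air replicate 2 lies at 9.90 in the squamous genes and 7.72 in muscle, and female hyperoxia replicate 1 is highest in squamous and basal cell genes.

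Markers of alveolar, club and ciliated cells had a small spread. Those of alveolar type 2 cells (9 genes), type 1 cells (8), club cells (7) and ciliated cells (12) were measured in all 12 pools, and the residual SD of their list means was 0.06, 0.07, 0.09 and 0.07 log2 units, against 0.26 for basal cells and 1.86 for the 10 squamous genes. For markers of smooth muscle, cartilage, thymus, thyroid and glands it was 0.13, 0.21, 0.12, 0.12 and 0.24. It was larger for adipose tissue (0.42), cardiac muscle (0.69) and skeletal muscle (1.14). Sftpc, the surfactant protein of type 2 cells, had a residual SD of 0.05. Over all clusters, correlations between arrays were 0.969 to 0.995 and array medians 8.12 to 8.20.

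**Figure D5:**
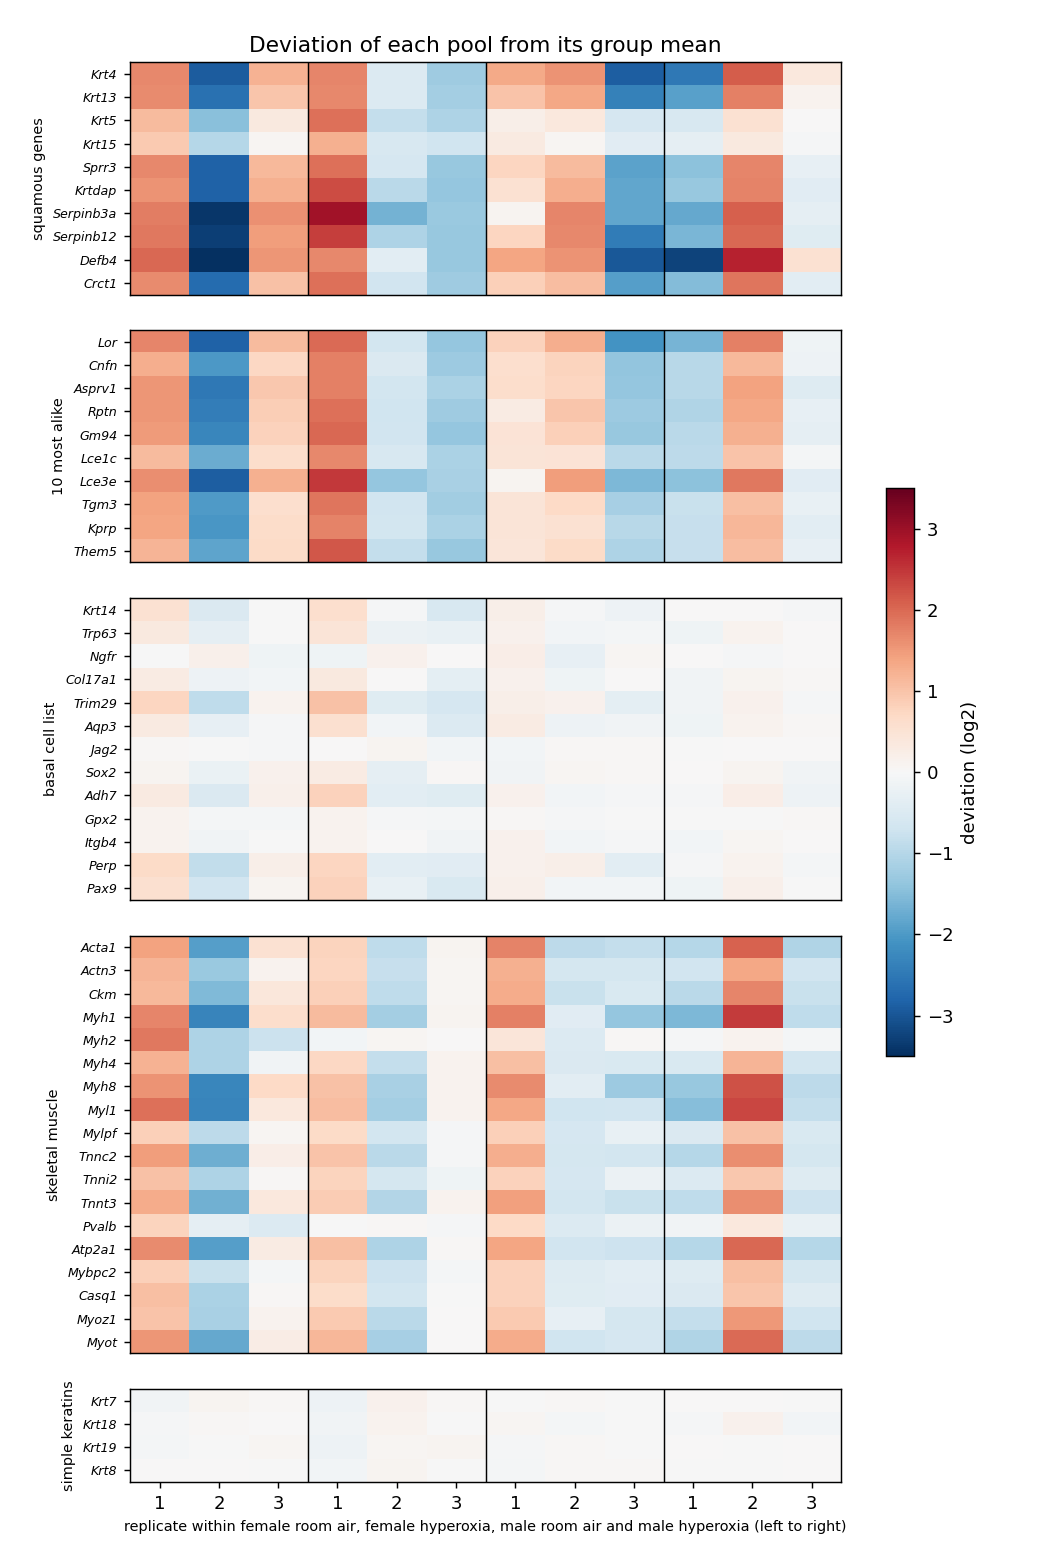
Deviation of each pool from the mean of its group, in log2 units (red higher, blue lower, white 0), for the 10 squamous genes, the 10 genes most like them, basal cell genes, skeletal muscle genes and 4 simple keratins. Rows are genes and columns are the 3 replicates of female room air, female hyperoxia, male room air and male hyperoxia. The squamous columns repeat from gene to gene, basal cell genes are paler, muscle genes differ from them in male room air replicate 2, and simple keratins are near white.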

How the data were processed

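RNA from pooled mouse lungs was hybridised to 12 Affymetrix Mouse Gene 1.0 ST arrays, 3 for each group of sex and treatment, as given by the sample labels. The authors deposited log2 values made by RMA (background correction, quantile normalization and median polish), of which neither version nor genome build is given in the sources used here. They were used as deposited, with no filter. Clusters were named from the platform annotation: 21789 of 35556 had 1 symbol, 1621 several and 12146 were not listed. A gene was represented by its brightest cluster on average. Promoter letters are from RefSeq (GRCm38.p6), which is not tied to the probes.

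Group means were fitted together by lmFit and eBayes of limma 3.58.1 (R 4.3.3), and p-values were adjusted over all clusters. The script was tested on simulated data. Spread and likeness were computed from deviations from the group means. The 10 genes, the lists and the alternatives were chosen with earlier results of these data known. Genes named beside the 10 were the 10 most and 5 least alike, called list members, those of largest spread in each list, and relatives and neighbours by symbol or position. Some of these, such as Ivl, Serpinb13 and Serpinb3c, were named after their values were seen. The arrays' number limits the precision. Same-numbered replicates of different groups had correlations of their deviations from -0.56 to 0.70, above 0.1 in 6 of 12 pairs. Between room air and hyperoxia they were 0.28, 0.70 and 0.46 in females and -0.17, 0.33 and 0.23 in males. Pools of different number reached 0.58 in females and 0.40 in males, so the numbers were not taken to pair samples. A fit with the replicate number as a block is given below. Scan dates were not analysed here.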

Additional observations from a re-analysis of the deposited data

How the results depend on the processing

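The count of 0 of the 10 squamous genes called held in all 6 contrasts under each alternative run except one: array weights by the default estimate of limma gave 2 in females, Krt5 (log2 fold change -1.70, adjusted p = 0.0460) and Krt15 (-1.26, adjusted p = 0.0328), and turned Defb4 over both sexes to -1.68. That estimate stopped before it converged and gave male room air replicate 3 a weight of 1.80e-08. Weights estimated gene by gene, added after the data were seen, gave that pool the highest weight, 6.45, and called 0 of the 10.

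The sign over both sexes was not stable: it turned in 50 of 250 values of the 10 genes, and none of the 250 was called. Leaving out 1 pool moved Krt4 from -0.94 to 0.41, Krt13 from -0.84 to 0.29, Krt5 from -0.74 to 0.024, Krt15 from -0.47 to 0.067, Sprr3 from -0.90 to 0.23, Krtdap from -1.02 to 0.078, Serpinb3a from -0.93 to 0.37, Serpinb12 from -1.05 to 0.24, Defb4 from -0.69 to 1.01 and Crct1 from -0.98 to 0.11. The gene-by-gene weights turned Krt4 to 0.28, Krt13 to 0.12, Serpinb3a to 0.040 and Serpinb12 to 0.072.

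Counts for the other lists depended more on settings. Other squamous genes called in females, 2 as reported, were 10 with the default weights, 1 with gene-by-gene weights, 1 at an adjusted p under 0.01, and 1 to 3 leaving out a pool. In males, 3 became 1 with the default weights, 5 with gene-by-gene weights and 5 with the mean of the 10 genes as a covariate, which gave 7 in place of 3 over both sexes, 1 of them lower (Rptn, -0.52). Basal cell genes called in females, 1 as reported, were 2 without the fold threshold, 2 with arrays centred on the median, 6 with the default weights and 1 to 2 leaving out a pool. In males, 2 became 4 with gene-by-gene weights and 4 with that covariate, and over both sexes 2 became 1 with the default weights and 4 with that covariate. The covariates and gene-by-gene weights were added after the data were seen. Clusters with r of at least 0.9, 56 as reported with 9 of the 10 genes among them, were 32 to 113 leaving out a pool. With the replicate number as a block, 0 of the 10 were called, and the counts of the other 2 lists were those reported. The causes were not tested. Where probes were near background, as for Serpinb3a, low values limit the fold range. The lowest values of Serpinb12 and Defb4 may limit their ranges likewise.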
